A study of Mus musculus with 15 samples.

Results

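The cytosolic ribosomal protein genes were taken by symbol from the counts of sorted mouse intestinal epithelium. All rows with a symbol in the form of an 80S ribosome protein name were used. These ran from Rpsa and Rps2 upward for the small subunit and from Rpl3 upward, with Rplp0, Rplp1 and Rplp2, for the large one. Rows with a pseudogene suffix were left out by that rule. It kept Rps4l, listed in RefSeq as a transcribed pseudogene, and Rpl32l, a processed pseudogene in GENCODE and protein-coding in RefSeq. It found 85 of 24594 rows, of which 31 belonged to the small subunit, 46 to the large subunit and 8 were paralogues or copies of another member, such as Rpl22l1. After a filter on low counts, 80 members were tested among 13314 genes. The fetal group held 3 libraries of proximal intestine from C57Bl/6J embryos at E16.5, sorted as EpCAM+, DAPI-, CD31- and CD45- cells, and its labels give no genotype. The adult group held 3 libraries of wild-type C57Bl/6J crypts taken along the proximal 20% of small intestine, made into single cells with collagenase and sorted as EpCAM+/DAPI-/Lin-/CD24mid. Neither group was treated. The series holds 15 libraries, and the 9 of organoids stand in a table without gene identifiers, so the members were not analysed there.

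Each ribosome carries a single copy of most of these proteins, arranged around the ribosomal RNA of a small subunit, which reads the messenger RNA, and a large subunit, which joins the amino acids. Their mRNAs begin with a terminal oligopyrimidine (TOP) tract, a stretch of C and T letters through which the mTOR kinase and the RNA-binding protein Larp1 set how strongly they are translated, so the amount of mRNA and of new protein can move apart. Intestinal crypts hold the dividing cells of the adult epithelium, and dividing cells make many ribosomes.

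Total counts were 5795518 to 10538004 per library, and Rn45s, the ribosomal RNA precursor, took 7.32% to 10.7% of them. For the adult libraries alone the labels name a kit, a Takara pico-input one for total RNA that keeps strand. Which kit made the fetal libraries is not given in the sources used here. Age and sort gate, and possibly the kit, changed together and cannot be told apart. All 8 epithelial markers had counts in every library, and 7 of them were lower in fetal cells. Of the 5 genes of the crypt gate list, 0 were higher and 4 lower in fetal cells by edgeR's test. Olfm4, a crypt stem cell marker, had 104, 95.0 and 74.1 CPM, reads scaled to a common library size, in the fetal libraries, against 6475, 7107 and 8869.8 CPM in the adult ones. Lgr5, another stem cell marker, fell by 2.04 on the log2 scale. The proliferation markers Mki67 and Top2a fell as well, with log2 fold changes of -0.86 and -1.21. Mki67 had 1464, 1203 and 1134 CPM in fetal libraries, against 2258, 2386 and 2276 CPM in adult libraries. Cd24a, which encodes the sort marker, had a log2 fold change of 0.02 and did not pass the test. The 9 mesenchymal markers summed to 112 to 156 CPM in fetal libraries and 0.509 to 2.83 CPM in adult libraries, where Lum and Sparc were at 0. The 7 pancreatic markers summed to 572 to 1299 CPM in fetal libraries and 2.30 to 4.58 CPM in adult libraries. The 4 erythroid markers summed to 31.6 to 55.6 CPM in fetal libraries and 0.509 to 1.38 CPM in adult ones, and the 5 of neurons and glia to 42.4 to 64.2 CPM in fetal libraries and 4.67 to 5.48 CPM in adult ones. The 7 immune markers summed to 22.6 to 24.1 CPM in fetal libraries and 25.3 to 29.2 CPM in adult libraries; of the 4 tested, Csf1r and Laptm5 rose, with log2 fold changes of 0.71 and 3.95, and Cd68 and Itgam fell, with -1.45 and -1.84. The 3 endothelial ones summed to 1.12 to 6.11 CPM in fetal libraries and 0.864 to 1.53 CPM in adult libraries. All 4 Y-linked genes counted had reads in every fetal library and 0 in every adult library, so the sex of the cells and their age cannot be told apart. The part of these differences in the results was not tested. Nothing in the labels ties a replicate to an animal of its own, and p-values then reflect only how far these libraries vary, which may be technical.

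The TOP tract is a feature that the choice of members did not use. RefSeq promoter entries on build GRCm38.p6 were found for 64 of the 85 members. The search was for a C followed by at least 7 letters that are each C or T, on the sense strand alone, beginning within 11 bases either side of the annotated transcript start. Such a run was present in 25 of the 64 members, or 39.1%, against 1151 of 10510 other tested genes, or 11%, and 2656 of 26961 other genes with an entry, or 9.85%. With the search widened to 25 bases either side, the shares were 57.8% of members, 20.1% of other tested genes and 19.1% of other genes. A match describes these letters and is not a measured start or site, and annotated starts can lie some bases from the one the cell uses. The windows of 30 bases below are centred on the annotated start, with the run that matched in capitals. They were chosen after the values were seen, to show the only higher member with a run (Rps26), 3 members that were lower (Rpl7a, Rps10 and Rplp2), 2 that did not pass the test (Rps9 and Rps15a) and 2 called members without a run (Rpl37a and Rpl5).
Rps26: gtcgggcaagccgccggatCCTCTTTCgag
Rpl7a: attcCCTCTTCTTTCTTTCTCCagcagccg
Rps10: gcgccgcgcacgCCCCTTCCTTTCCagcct
Rplp2: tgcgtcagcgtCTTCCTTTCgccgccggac
Rps9: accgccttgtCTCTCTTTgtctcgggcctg
Rps15a: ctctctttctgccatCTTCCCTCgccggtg
Rpl37a: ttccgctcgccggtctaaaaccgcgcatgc
Rpl5: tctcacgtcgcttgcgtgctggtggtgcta
These windows lie at chr10:128626492-128626521 on the minus strand for Rps26, chr2:26910792-26910821 on the plus strand for Rpl7a, chr17:27635230-27635259 on the minus strand for Rps10, chr7:141447636-141447665 on the plus strand for Rplp2, chr7:3704026-3704055 on the plus strand for Rps9, chr7:118116133-118116162 on the minus strand for Rps15a, chr1:72711245-72711274 on the plus strand for Rpl37a and chr5:107900513-107900542 on the plus strand for Rpl5.

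With all 6 libraries, every tested member of the cytosolic ribosomal protein set was within 1 log2 unit between fetal and adult epithelium. The comparison asks how the E16.5 epithelium differs from adult crypt cells, here for the genes of one complex. Of the 80 tested members, 3 were higher in fetal cells (Rpl37a, Rps4l and Rps26) and 20 were lower, by edgeR's quasi-likelihood test with Benjamini-Hochberg adjustment over all 13314 genes. Together they were 28.8% of the members, whereas 54.9% of all tested genes were called in either direction. Of all tested genes, 29.0% were called higher and 25.9% lower. All 80 changes were smaller than 1 on the log2 scale, from -0.91 for Rpl5 to 0.78 for Rpl37a. Among all tested genes, 10096 of 13314 stayed within that size. With 1 library left out, 3 members passed it: Rpl5 at -1.09 without adult library 1 and -1.06 without adult library 3, Rpl32l at -1.10 without adult library 1, and Rpl36 at -1.02 without fetal library 1. The median log2 fold change was -0.11 over the members and 0.01 over all genes, with 52 members below 0 and 28 above. The CPM ranges of the groups did not overlap for 22 members, 6 higher and 16 lower in fetal cells, or 27.5%, beside 62.3% of all genes. The proliferation markers Mki67 and Top2a moved with the lower members, and their part in these results was not tested. In such bulk libraries, fewer cells that express a gene and less RNA of it per cell cannot be told apart.

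**Figure D1:**
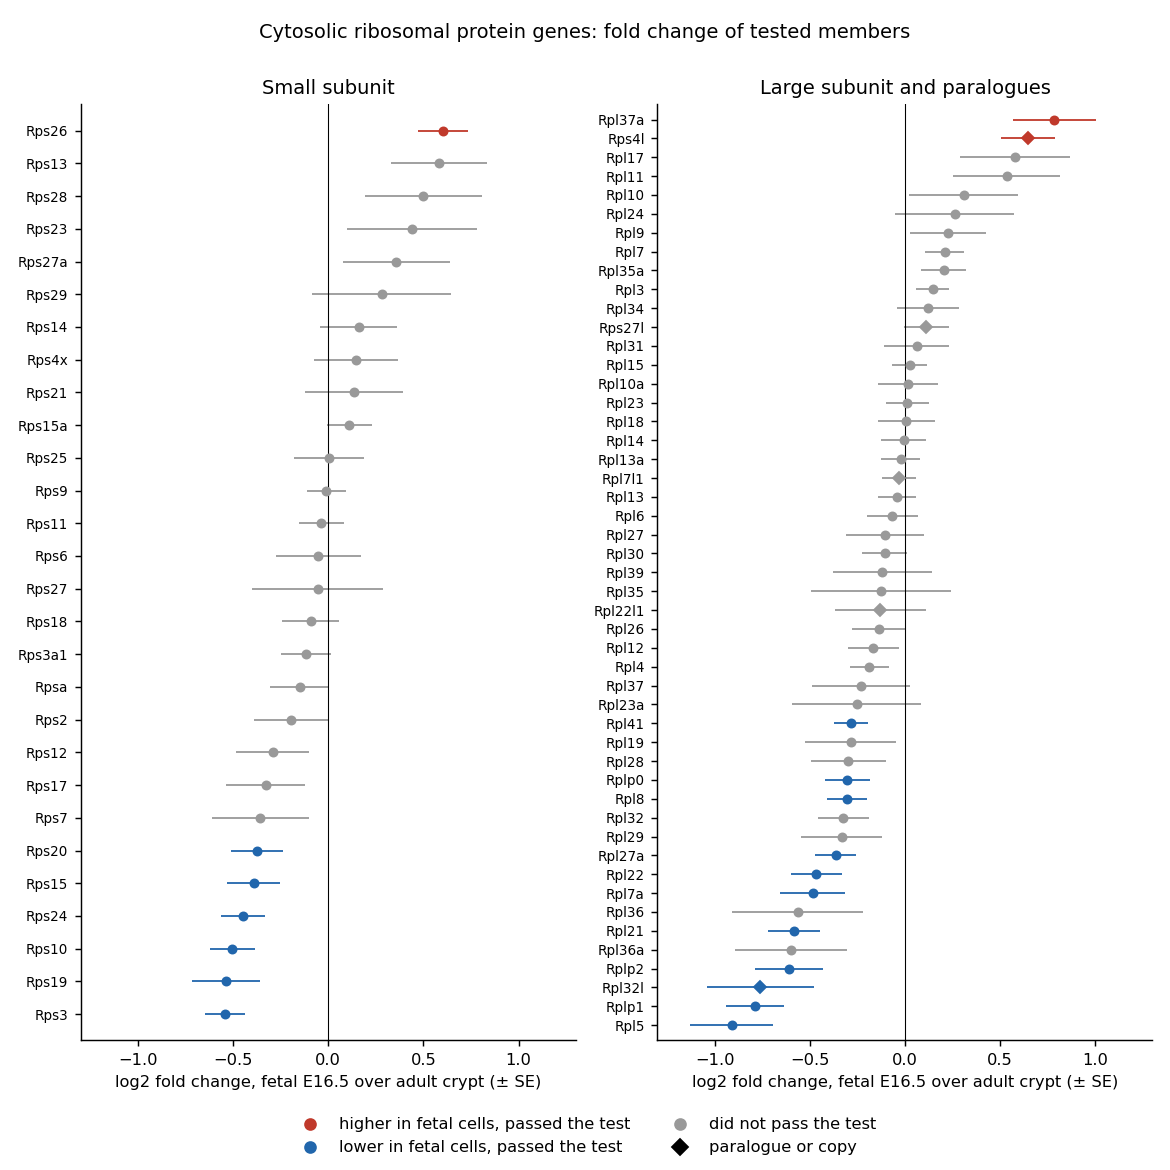
Log2 fold change of 77 of the 80 tested members, fetal E16.5 over adult crypt, with its standard error, for 28 small subunit members on the left and 44 large subunit members and 5 paralogues on the right. Every point lies between -0.91 and 0.78, with 17 called members to the left of 0 and 3 to the right.

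By subunit and by pyrimidine run, the counts were as follows, beside 54.9% of all tested genes called in either direction. Of 30 tested small subunit members, 1 was higher and 8 were lower in fetal cells, with a median log2 fold change of -0.07. Of 45 tested large subunit members, 1 was higher and 11 were lower, with a median of -0.12. Of 5 tested paralogues or copies, 1 was higher and 1 lower. Of the 24 tested members with a pyrimidine run at their start, 1 was higher and 6 were lower, with a median of -0.11. Of the 35 tested members with an entry but no run, 1 was higher and 7 were lower, with a median of -0.07. The 4 members on the X chromosome (Rpl10, Rpl36a, Rpl39 and Rps4x) gave 0 calls in edgeR's test, and 0 of them had an unadjusted p under 0.05.

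In the small subunit, Rps3, a protein of the mRNA entry channel with a second role in DNA repair, had the lowest fold change. It measured 757, 842 and 921 CPM in fetal libraries, against 1085, 1320.1 and 1264 CPM in adult libraries. Every fetal library was below every adult library. Its log2 fold change was -0.54 with a standard error of 0.10 (adjusted p = 0.000686, edgeR). Rps19, the protein whose loss causes Diamond-Blackfan anaemia most often, had 9.48, 11.2 and 13.03 CPM in fetal libraries, against 14.0, 18.3 and 16.9 CPM in adult libraries. The groups again did not overlap, and the log2 fold change was -0.54 with a standard error of 0.18 (adjusted p = 0.0218, edgeR). Its call was lost without fetal library 1 (log2 fold change -0.42, adjusted p = 0.0878, edgeR), without fetal library 2 (-0.53) and without adult library 2 (-0.46). Rps10, Rps24, Rps15 and Rps20 also fell, between -0.50 and -0.37, and are named after their values were seen. Rps10 and Rps24 kept the call in each fit that leaves out 1 library. For Rps10, only 7.57% of the 50-base windows of its transcript occur in transcripts of no other gene. Rps15 lost it without fetal library 2, fetal library 3, adult library 2 or adult library 3, coming to -0.23 without adult library 3 (adjusted p = 0.135, edgeR). Rps20 lost it without fetal library 2, fetal library 3 or adult library 3, coming to -0.22 without adult library 3 (adjusted p = 0.15, edgeR).

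Rps26, which lies at the mRNA exit channel and contacts bases ahead of the start codon, was higher in fetal cells. It had 241, 278 and 323 CPM in fetal libraries, against 164, 166 and 225 CPM in adult libraries. The lowest fetal library was above the highest adult one, and the log2 fold change was 0.60 with a standard error of 0.13 (adjusted p = 0.00179, edgeR). It was the only tested small subunit member called higher and also an abundant one, with 281 ± 41.3 CPM in fetal cells and 185 ± 34.7 CPM in adult cells (SD, n = 3 each). Rps13, Rps28 and Rps23 had log2 fold changes of 0.58, 0.50 and 0.44 but lay under 10 CPM in every library and did not pass the test. For Rps13, all fetal libraries lay above all adult ones.

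Other well-known small subunit members did not differ beyond their spread. Rpsa, the laminin receptor protein of the 40S head, had 461, 559 and 357 CPM in fetal libraries, against 542, 409 and 577 CPM in adult libraries, and the groups overlapped. Rps9, a binder of the early folding ribosomal RNA, averaged 509 ± 46.3 CPM in fetal cells and 512 ± 58.1 CPM in adult cells (SD, n = 3 each), with a log2 fold change of -0.01 and a standard error of 0.10. Rps6, the substrate of the S6 kinases downstream of mTOR, had 14.5, 10.7 and 9.56 CPM in fetal libraries, against 10.96, 9.501 and 15.4 CPM in adult libraries. Its log2 fold change of -0.05 had a standard error of 0.22.

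The acidic P stalk, through which the large subunit recruits elongation factors, was lower in fetal cells in all of its proteins. Rplp1 had 1039, 998 and 681 CPM in fetal libraries, against 1402, 1463 and 1826 CPM in adult libraries. The groups were apart, fetal library 3 being the lowest of all, and the log2 fold change was -0.79 with a standard error of 0.15 (adjusted p = 0.000662, edgeR). Rplp2, its partner in the stalk dimers, had 118, 104 and 101 CPM in fetal libraries, against 105, 194 and 194 CPM in adult libraries. Adult library 1 lay within the fetal range, and the log2 fold change of -0.61 (SE 0.18, adjusted p = 0.0112, edgeR) became -0.48 without adult library 2 (adjusted p = 0.0584, edgeR). Rplp0, which anchors the stalk, had 370.2, 360.1 and 286 CPM in fetal libraries, against 377, 389.5 and 487 CPM in adult libraries. The highest fetal and the lowest adult library were close, and the log2 fold change was -0.30 with a standard error of 0.12 (adjusted p = 0.0463, edgeR). Its call was lost without fetal library 2, fetal library 3 or adult library 3, with log2 fold changes as near to 0 as -0.18 and an adjusted p of up to 0.205 (edgeR).

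Rpl5 and Rpl11 form the 5S ribonucleoprotein with the 5S ribosomal RNA, which also binds Mdm2 when ribosome assembly stalls. Rpl5 had 65.6, 53.9 and 69.9 CPM in fetal libraries, against 87.5, 177 and 92.0 CPM in adult libraries. Adult library 2 was far above the other adult libraries, and all adult libraries were above all fetal ones. The log2 fold change was -0.91 with a standard error of 0.22 (adjusted p = 0.00317, edgeR) and -0.51 without adult library 2, where the call held. Rpl5 lies at chr5:107900508-107909005, and 45.3% of the 50-base windows of its transcript also occur in transcripts of Dipk1a, a gene that overlaps it. Only 6.16% of its windows occur in transcripts of no other gene. The Dipk1a row itself held 229, 244 and 298 reads in fetal libraries and 168, 160 and 176 reads in adult libraries. Rpl11 had 5.99, 7.36 and 4.41 CPM in fetal libraries, against 4.60, 3.22 and 4.32 CPM in adult libraries. The lowest fetal library lay among the adult ones, and the log2 fold change of 0.53 (SE 0.28, adjusted p = 0.127, edgeR) did not pass the test. Whether the fold changes of Rpl5 and Rpl11 differ was not tested.

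Among the other large subunit members, Rpl22, Rpl21 and Rpl8 fell. Rpl22, an RNA-binding protein not needed for translation in general, had 591, 629.9 and 435 CPM in fetal libraries, against 684, 718 and 883 CPM in adult libraries. The groups did not overlap, with a log2 fold change of -0.46 (SE 0.14, adjusted p = 0.011, edgeR). Rpl21 had 17.6, 20.3 and 23.3 CPM in fetal libraries, against 28.8, 31.9 and 31.5 CPM in adult libraries. Here too the groups were apart, with a log2 fold change of -0.58 (SE 0.13, adjusted p = 0.00251, edgeR). Rpl8, a protein near the peptidyl transferase centre, had 1252, 1283 and 1039.6 CPM in fetal libraries, against 1379.5, 1418 and 1621 CPM in adult libraries. Its log2 fold change of -0.31 (SE 0.11, adjusted p = 0.0269, edgeR) lost the call without fetal library 3 (-0.21) and without adult library 3 (-0.23). Rpl4, which lines the exit tunnel, averaged 1283 ± 84.8 CPM in fetal cells and 1459.6 ± 162 CPM in adult cells (SD, n = 3 each) and did not pass the test, at a log2 fold change of -0.19. Rpl7a, Rpl27a and Rpl41 also fell, between -0.49 and -0.28, and are named after their values were seen. Rpl7a lost the call without fetal library 1, fetal library 2 or adult library 2 (as near to 0 as -0.32, adjusted p of up to 0.142, edgeR). Rpl27a and Rpl41 lost it without fetal library 3 or adult library 3, with adjusted p of up to 0.0596 for Rpl27a and 0.0793 for Rpl41.

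Rpl37a, a zinc finger protein of the large subunit, was the only tested large subunit member called higher. It had 13.5, 15.3 and 9.65 CPM in fetal libraries, against 8.31, 6.96 and 6.91 CPM in adult libraries. All fetal libraries were above all adult ones, and the log2 fold change was 0.78 with a standard error of 0.22 (adjusted p = 0.00824, edgeR). Rpl10, which joins the subunit late and completes its catalytic site, had 13.1, 14.5 and 24.9 CPM in fetal libraries, against 15.6, 18.8 and 8.47 CPM in adult libraries. Its groups overlapped, and its log2 fold change of 0.31 turned to -0.04 without fetal library 3. Rpl17, Rpl36 and Rpl36a had log2 fold changes of 0.58, -0.56 and -0.60 at under 10 CPM in every library, and none of the 3 passed the test with all libraries. Rpl36 passed it without fetal library 1 and Rpl17 without adult library 1.

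**Figure D2:**
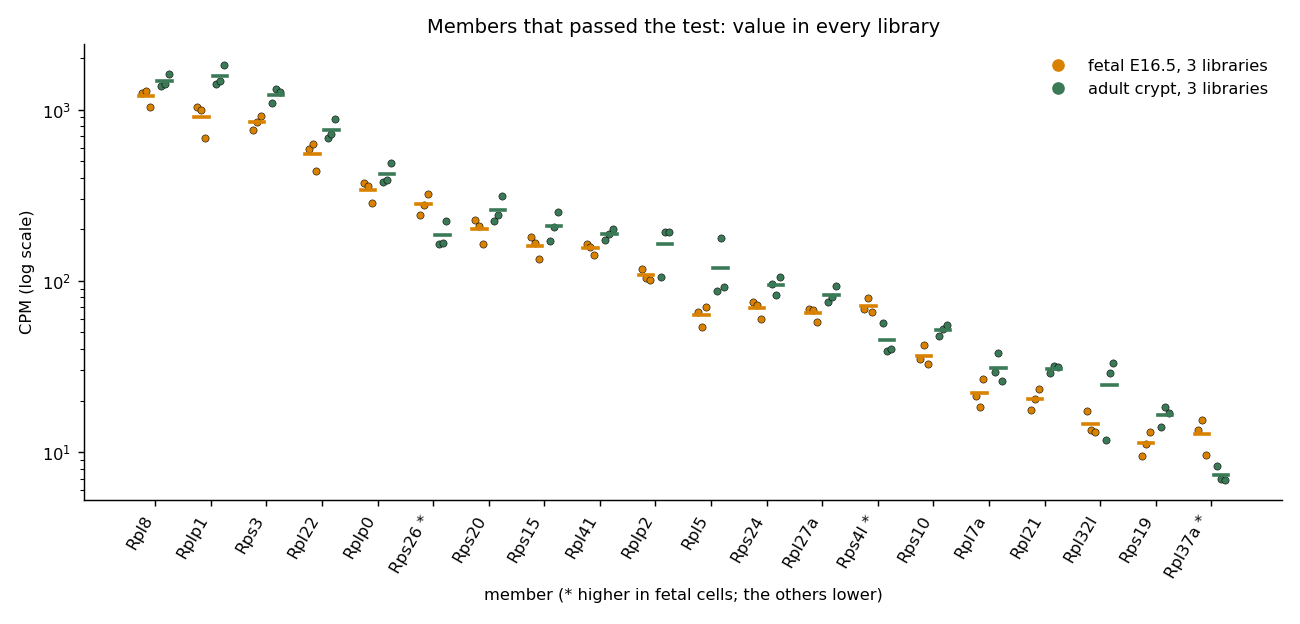
CPM on a log scale of 20 of the 23 members that passed the test, in each of 3 fetal E16.5 libraries (left of each pair) and 3 adult crypt libraries (right), with bars at the group means. Rps26, Rps4l and Rpl37a, marked with a star, lie higher in all fetal libraries. Adult library 1 lies within the fetal range for Rplp2, Rps15 and Rps20 and below it for Rpl32l. Adult library 3 lies within the fetal range for Rpl7a.

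Members too low to test were Rpl38, Rps16 and 3 paralogues. Rpl38, a small protein linked in mice to the translation of Hox mRNAs, had 4, 3 and 9 reads in fetal libraries and 4, 1 and 1 reads in adult libraries. Rps16 had 3, 0 and 17 reads in fetal libraries and 1, 10 and 3 reads in adult libraries. In the 3 paralogues there were 6, 1 and 0 reads, as given with the paralogues.

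Levels differed widely between members. Over the tested members the mean CPM of the 6 libraries ran from 1.47 to 1371, a ratio of 930, although the proteins are built into the ribosome at nearly equal numbers. Divided by the length of the GENCODE transcript chosen for each member, the mean ran from 2.58 CPM per kb for Rpl35 to 2475 CPM per kb for Rplp1. Rplp1 stood first in both groups, at 1816 CPM per kb in fetal cells and 3133 CPM per kb in adult cells. Rpl8 followed with 1400.3 CPM per kb in fetal cells and 1731 CPM per kb in adult cells, then Rpl22 with 1165 CPM per kb in fetal cells and 1607 CPM per kb in adult cells. Rpl4 had 834 CPM per kb in fetal cells and 949 CPM per kb in adult cells, and Rps9 had 678 CPM per kb in fetal cells and 682 CPM per kb in adult cells. The 5 members with the most reads held 50.5% of all member reads and the first 10 held 68.6%.

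Ribosomal protein genes have many processed copies in the genome, so reads of a member can match other rows. For each of 83 members, a GENCODE transcript was chosen, the one annotated as principal first, then the longest coding part. It need not be the form these cells use most, having 3706 bases for Rps20 and 2045 for Rpl5. The effect of that choice on the share below and on CPM per kb was not tested. The share of its 50-base windows that occur in transcripts of no other gene was computed. This share ran from 1.35% for Rps27 to 100% among the 78 tested members with a value, with a median of 38.3%. How the authors treated reads that match several genes is not given in the sources used here. Across those 78 members the share had a Spearman rho of 0.46 with the mean CPM per kb, given as a description over genes of the same 6 libraries. Of 28 tested members with a share of at least 50%, 2 were higher and 11 lower in fetal cells, or 46.4%. Their median log2 fold change was -0.18, and 54.9% of all tested genes were called in either direction. Of 50 with a smaller share, 0 were higher and 8 lower by edgeR's test, with a median of -0.10, and 1 more member had an unadjusted p under 0.05. The median standard error was 0.12 in the first set and 0.19 in the second.

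**Figure D3:**
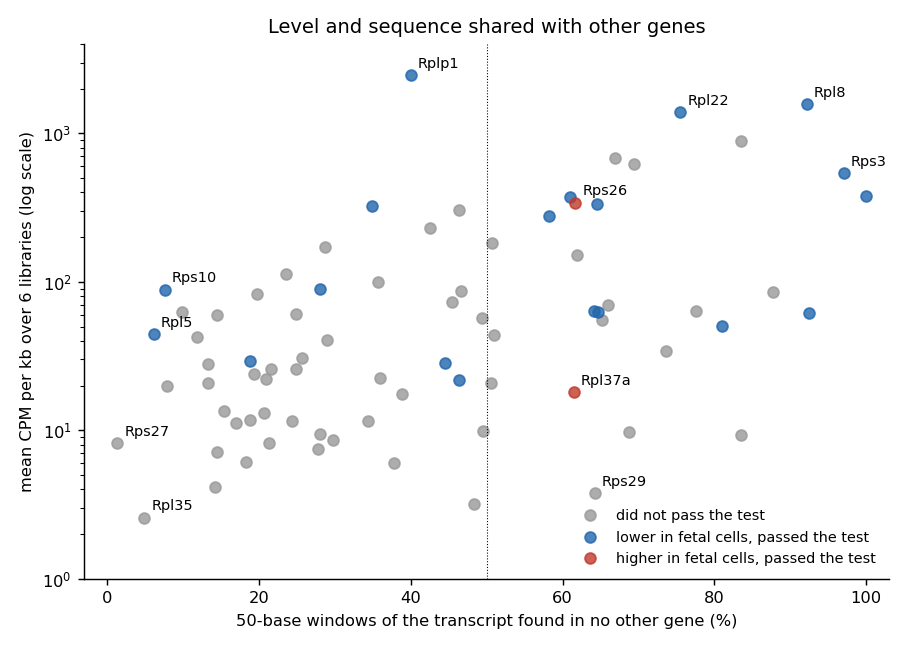
Mean CPM per kb over 6 libraries (log scale) against the percentage of 50-base windows found in no other gene, for the 78 tested members with a value. Rps27 and Rpl35 lie low on the left, Rps10 and Rpl5 lie higher at a like share, and Rpl8, Rpl22 and Rps3 lie high on the right; Rplp1 is the highest of all at 40.0% unique windows.

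Rps27 shows how far copies can reach. Its first 60 coding bases, from GENCODE transcripts on mm10, are the same as those of Rps27rt, a retrotransposed copy on chromosome 9, and differ at 18 bases from its paralogue Rps27l, also on chromosome 9. The lines below are aligned base by base to Rps27, with capitals at the bases that differ.
Rps27: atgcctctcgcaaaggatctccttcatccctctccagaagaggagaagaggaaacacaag
Rps27rt: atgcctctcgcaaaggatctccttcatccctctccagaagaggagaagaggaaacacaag
Rps27l: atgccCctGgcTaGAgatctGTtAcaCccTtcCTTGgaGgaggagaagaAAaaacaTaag
Rps27rt shares 98.6% of the 50-base windows of Rps27. The Rps27 row measured 3.12, 1.75 and 3.37 CPM in fetal libraries and 3.36, 2.21 and 3.11 CPM in adult libraries, whereas Rps27l measured 34.6, 31.2 and 33.8 CPM in fetal libraries and 32.2, 27.1 and 32.8 CPM in adult libraries. The groups overlapped for both.

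Other members had copies with as many reads or more. Rpl26 had 773, 717 and 762 reads in fetal libraries and 511, 457 and 664 reads in adult libraries, and the row of its processed pseudogene Gm15772 had 788, 730 and 776 reads in fetal libraries and 522, 466 and 665 reads in adult ones. The rows thus held nearly the same number of reads in each library. Rpl37 had 55, 50 and 100 reads in fetal libraries and 44, 71 and 39 reads in adult libraries, against 2738, 2573 and 2427 reads in fetal libraries and 3089, 4115 and 4748 reads in adult libraries for its retrotransposed copy Rpl37rt. The Rplp2-ps1 row held 9879, 10304 and 10642 reads in fetal libraries and 8273, 9414 and 10510 reads in adult libraries, far above Rplp2. It was lower in fetal cells with a log2 fold change of -0.47 (adjusted p = 0.00382, edgeR), and it lies within Wdr89, whose row held 9960, 10379 and 10755 reads in fetal libraries and 8319, 9440 and 10552 reads in adult libraries. Values of these members are uncertain for this reason. With only the rows whose symbol ends in -ps and a number added to their parent, 3 members were higher and 20 lower, as before. Copies with other names, such as Gm15772 and Rpl37rt, were not added. That count therefore cannot show how much copies matter.

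Paralogues can replace their parent in some ribosomes or tissues. Rpl7l1 had 114, 114 and 105 CPM in fetal libraries, against 105, 121 and 114 CPM in adult libraries. Rpl22l1, which in mice is repressed by Rpl22, had 5.86, 6.36 and 6.00 CPM in fetal libraries, against 8.66, 5.43 and 5.88 CPM in adult libraries. Neither passed the test. Rpl3l, the striated muscle form of Rpl3, had 6 reads in all 6 libraries together, Rpl39l, the testis form of Rpl39, had 1 read, and Rpl10l, the testis form of Rpl10, had 0. The log2 ratio of a paralogue to its parent was compared in 7 pairs with a two-sided exact permutation test over 3 against 3 libraries, which cannot go below p = 0.1. The difference, fetal minus adult, ran from -0.31 to 0.54, and the smallest exact p was 0.2, or 0.467 after adjustment over the 7 pairs. Both ends were pairs added after the values were seen, Rpl32l over Rpl32 and Rps4l over Rps4x. The planned pairs ran from -0.24 to 0.38. For Rpl22l1 over Rpl22 the ratio was -6.38 ± 0.27 in fetal cells and -6.75 ± 0.47 in adult cells (SD, n = 3 each; exact p = 0.3). For Rps27l over Rps27 it was 3.41 ± 0.36 in fetal cells and 3.21 ± 0.14 in adult cells (SD, n = 3 each, exact permutation test p = 0.6). Of their windows, 34.4% for Rpl22l1 and 1.35% for Rps27 occur in no other gene. How reads of copies bear on both ratios was not tested.

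The copies Rps4l and Rpl32l passed the test in opposite directions. Rps4l, listed in RefSeq as a transcribed pseudogene on chromosome 6, had 68.4, 79.2 and 65.5 CPM in fetal libraries, against 57.1, 38.9 and 40.1 CPM in adult libraries. All fetal libraries were above all adult ones, with a log2 fold change of 0.65 (SE 0.14, adjusted p = 0.00162, edgeR). Its parent Rps4x had 6.61, 7.11 and 9.09 CPM in fetal libraries, against 6.19, 7.46 and 7.09 CPM in adult libraries, and did not pass the test. The pair's ratio, added after the values were seen, differed by 0.54 on the log2 scale (exact p = 0.2). Rpl32l had 17.3, 13.5 and 13.03 CPM in fetal libraries, against 11.8, 29.0 and 33.0 CPM in adult libraries. Adult library 1 was below all fetal libraries, and the log2 fold change of -0.76 (SE 0.28, adjusted p = 0.036, edgeR) lost the call without fetal library 2, fetal library 3, adult library 2 or adult library 3, with an adjusted p of up to 0.17.

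By level, of 20 members with a mean above 100 CPM, 1 was higher and 10 were lower in fetal cells, or 55.0%. Over all tested genes, 54.9% were called in either direction. The median log2 fold change of these 20 members was -0.29. Of 40 members between 10 and 100 CPM, 2 were higher and 10 lower, or 30.0%, with a median of -0.07. Of 20 tested members under 10 CPM, 0 were called by edgeR, with a median of -0.09, and 1 had an unadjusted p under 0.05. Spearman's rho between mean CPM and log2 fold change was -0.32 over 78 members, given as a description. Of the 29 tested members that hold a small nucleolar RNA (snoRNA) gene within their span, 0 were higher and 9 lower in fetal cells. That was 31.0%, beside the same 54.9%, with a median of -0.19. Of the 51 others, 3 were higher and 11 lower, or 27.5%, with a median of -0.03.

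Member rows took 1.04%, 1.06% and 0.909% of all counts in the fetal libraries, against 1.07%, 1.15% and 1.35% in the adult libraries, or 1.003% ± 0.0821 in fetal and 1.19% ± 0.145 in adult libraries (SD, n = 3 each). Fetal library 3 was the lowest of its group for 41 of 80 members and adult library 3 the highest of its group for 41 of 80. Among the 28 members with at least 50% unique windows, fetal library 3 was the lowest of its group for 21 and adult library 3 the highest for 20. Relative to their mean over all libraries, the median member of that set stood at -0.18 on the log2 scale in fetal library 3 and at 0.23 in adult library 3. Among the 50 other members, these medians were -0.03 and 0.11. Such counts and medians were not made over all tested genes, so whether the pattern is particular to the members was not tested.

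**Figure D4:**
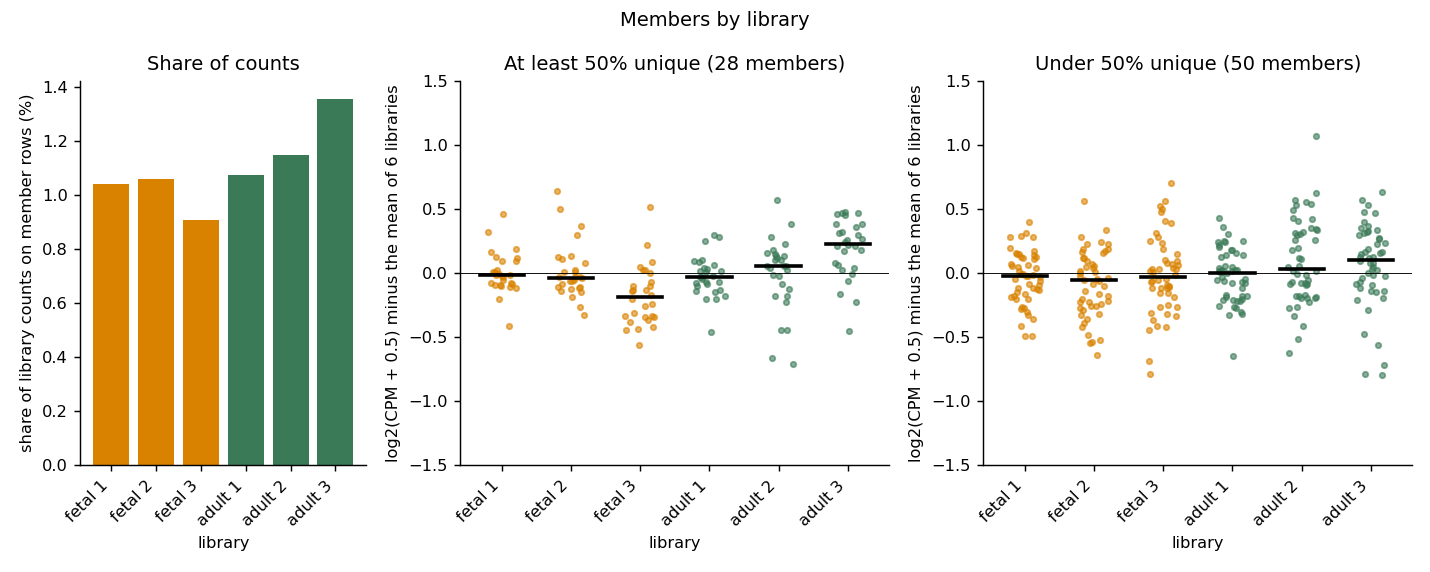
Left, the percentage of each library's counts on member rows. Middle and right, log2(CPM + 0.5) of each tested member minus its mean over the 6 libraries, for 28 members with at least 50% unique windows and 50 with fewer; black bars are medians. Fetal library 3 is lowest and adult library 3 highest in the left and middle panels.

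The number of lower members varied with the libraries used. Without fetal library 3 there were 3 higher and 11 lower members, or 17.7%, beside 49.2% of all genes in that fit. Without adult library 3 there were 5 higher (Rpl7 and Rpl35a added) and 11 lower, or 19.8%, beside 52.8% of all genes. Without fetal library 2 there were 3 higher and 13 lower, or 20.3%, beside 48.3% of all genes. With all libraries these shares were 28.8% and 54.9%. Rpl37a, Rps4l and Rps26 were called higher in each of the 6 fits that leave out 1 library. Of the 20 lower members, 8 were called lower in each of the 6, among them Rpl5, Rplp1, Rpl21, Rps3, Rps10, Rpl22 and Rps24, and the other 12 lost the call in at least 1.

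Of 4 ribosomal protein genes whose symbols fall outside the naming rule, 0 were higher and 3 lower by edgeR's test, beside 54.9% of all genes called in either direction, and 1 was lower without fetal library 3, adult library 2 or adult library 3. Rack1, the scaffold protein of the 40S head, had 536, 521 and 447 CPM in fetal libraries, against 608, 656 and 789.7 CPM in adult libraries. The groups did not overlap, with a log2 fold change of -0.45 (SE 0.11, adjusted p = 0.00363, edgeR). Fau, which encodes Rps30 fused to a ubiquitin-like protein, had 694, 708 and 531 CPM in fetal libraries, against 711, 798 and 918 CPM in adult libraries. Its log2 fold change of -0.33 (adjusted p = 0.0373, edgeR) lost the call without fetal library 3, adult library 2 or adult library 3, with an adjusted p of up to 0.168. Rpl36al, an autosomal copy of Rpl36a, fell by 0.49 on the log2 scale (adjusted p = 0.0463, edgeR) and lost the call without fetal library 1, fetal library 3, adult library 2 or adult library 3, with an adjusted p of up to 0.21.

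Other mRNAs with a TOP tract were next. Of 18 tested translation factors and related genes, 2 rose and 5 fell in fetal cells, or 38.9%, with a median of -0.06. Of all tested genes, 29.0% were higher and 25.9% lower, or 54.9% in all. Pabpc1, the poly(A)-binding protein, had 879.5, 848 and 788 CPM in fetal libraries, against 1089, 1109 and 1288 CPM in adult libraries, with a log2 fold change of -0.47 (adjusted p = 0.000966, edgeR). Tpt1 had 49.3, 41.7 and 54.4 CPM in fetal libraries, against 75.8, 85.0 and 79.0 CPM in adult libraries, with a log2 fold change of -0.72 (adjusted p = 9.52e-05, edgeR). The groups were apart for both. Eif3k, a subunit of initiation factor eIF3, fell by 0.69 on the log2 scale. Vim, which is also a mesenchymal gene, rose by 2.20, and the mesenchymal markers moved with it. Without fetal library 1, fetal library 3 or adult library 3 there was 1 higher gene in place of 2. Of 24 initiation factors, 2 were higher and 8 lower, or 41.7% beside the same 54.9%, with a median of -0.09, and 5 were lower without fetal library 2, and 4 without fetal library 3 or without adult library 2. Eif6, which keeps the new large subunit from joining the small one too early, had 107, 110.0 and 97.9 CPM in fetal libraries, against 199, 242 and 195 CPM in adult libraries. That was a log2 fold change of -1.02 (SE 0.10, adjusted p = 1.83e-06, edgeR). Eif3b and Eif4h fell by 0.43 and 0.31, and Eif4a2 rose by 0.49.

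Assembly of ribosomes starts in the nucleolus, where snoRNA particles modify and fold the ribosomal RNA. Of 35 genes of the snoRNA particles and the small subunit processome, 0 were higher and 17 lower by edgeR's test, or 48.6%, with a median log2 fold change of -0.27. Over all tested genes 29.0% were higher and 25.9% lower, or 54.9% in all. Heatr1 had 81.5, 69.3 and 72.3 CPM in fetal libraries, against 107, 119 and 117 CPM in adult libraries, and Rcl1 had 36.3, 33.5 and 29.0 CPM in fetal libraries, against 46.8, 61.6 and 61.5 CPM in adult libraries. The groups did not overlap, and the log2 fold changes were -0.62 and -0.79. Nol6 and Nop14 fell by 0.55 and 0.48. Without fetal library 3 the list gave 1 higher and 10 lower genes, and without adult library 2 it gave 10 lower. Of 41 genes of large subunit assembly, 1 was higher and 12 lower, or 31.7% beside the same 54.9%, with a median of -0.23, and 7 were lower without fetal library 2, fetal library 3 or adult library 2, with 2 higher in the last 2 fits. Mdn1, the large ATPase that strips factors from the early large subunit, had 150.3, 140.3 and 109 CPM in fetal libraries, against 165, 249 and 229 CPM in adult libraries, with a log2 fold change of -0.69 (adjusted p = 0.0015, edgeR). The helicases Ddx27 and Ddx21 fell by 0.67 and 0.53, and Ftsj3 fell by 0.53. A test of these lists against the members was not made.

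Of 15 RNA polymerase I genes, which transcribe the ribosomal RNA precursor, 0 were higher and 7 lower by edgeR's test, or 46.7%, with a median log2 fold change of -0.19. Over all tested genes the shares were 29.0% higher and 25.9% lower, or 54.9% in all. Cd3eap, a subunit of the enzyme, had 56.5, 49.8 and 41.1 CPM in fetal libraries, against 72.7, 79.9 and 79.5 CPM in adult libraries, with a log2 fold change of -0.66 (adjusted p = 0.000339, edgeR). Ubtf, the factor that holds ribosomal DNA open, fell by 0.35. Polr1d and Twistnb fell by 0.31 and 0.33, Polr1d losing the call without fetal library 3 (adjusted p = 0.0608) and Twistnb without fetal library 1, fetal library 3 or adult library 3 (adjusted p of up to 0.0688, edgeR). The list had 4 lower genes without fetal library 2 or adult library 2, 2 without fetal library 3, and 3 lower and 1 higher without adult library 3. Of 11 host genes of snoRNAs that make no protein, 1 was higher and 4 lower, or 45.5% beside the same 54.9%, with a median of -0.35. Snhg4 had 17.6, 24.2 and 21.4 CPM in fetal libraries, against 40.5, 40.4 and 47.4 CPM in adult libraries, with a log2 fold change of -1.02 (adjusted p = 3.14e-05, edgeR). Snhg1 and Snhg3 fell by 0.94 and 0.89. Snhg17 rose by 0.42 and lost the call without fetal library 3, adult library 1 or adult library 3 (adjusted p of up to 0.116, edgeR). Of 24 genes of late maturation and export, 2 were higher and 2 lower, or 16.7% beside the same 54.9%, with a median of -0.04. Nap1l1 had 131, 128 and 115 CPM in fetal libraries, against 49.3, 61.9 and 55.7 CPM in adult libraries, with a log2 fold change of 1.17 (adjusted p = 6.63e-07, edgeR), and Bysl rose by 0.47. Ipo7, an importin that carries ribosomal proteins, fell by 0.34. Znhit3 fell by 0.53 and lost the call without fetal library 1, fetal library 3, adult library 1 or adult library 3, with an adjusted p of up to 0.119; 1 gene of the list was lower without fetal library 3 or adult library 3.

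**Figure D5:**
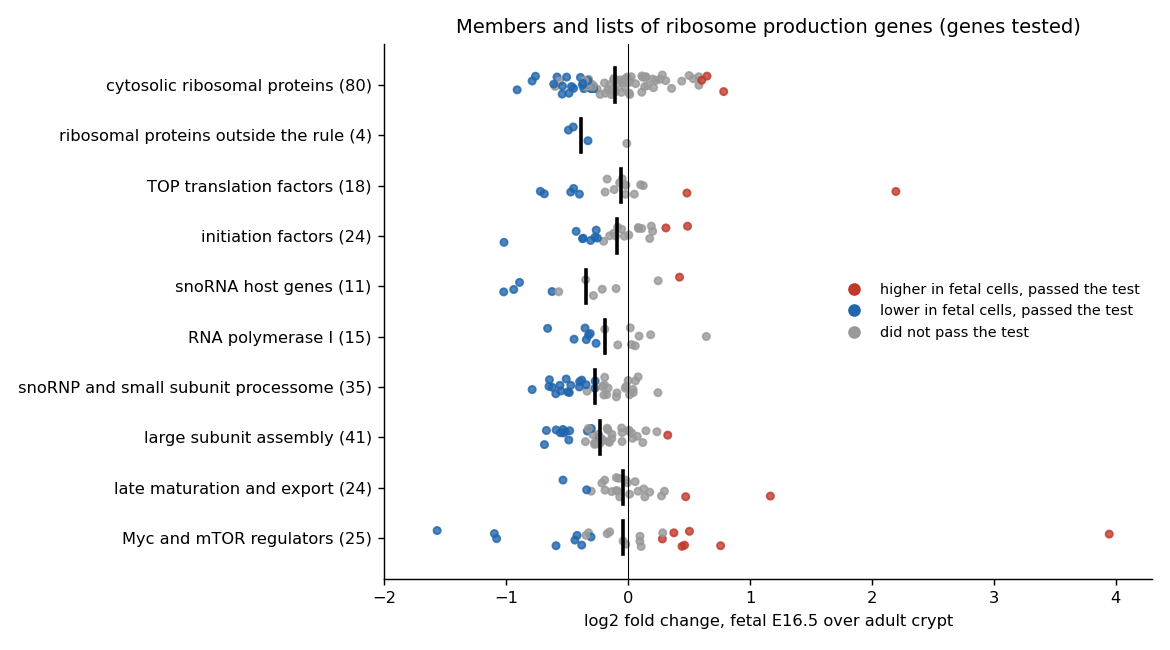
Log2 fold change, fetal E16.5 over adult crypt, of each tested member (top row) and of each tested gene of 9 related lists, with the number tested in brackets and a black bar at the median. Medians run from -0.39 to -0.04, and the points farthest to the right and left are Mycn and Mycl.

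Myc proteins and the mTOR kinase set how many ribosomes a cell makes. Of 25 Myc and mTOR regulators, 7 were higher and 8 lower in fetal cells, beside 54.9% of all genes called, with a median of -0.04. Mycn, a Myc family factor of embryonic tissues, had 128, 111 and 106 CPM in fetal libraries, against 9.90, 5.43 and 7.09 CPM in adult libraries. Its log2 fold change was 3.95 with a standard error of 0.16 (adjusted p = 6.42e-10, edgeR). Myc, the family's founding member and an activator of ribosomal genes, had 81.2, 70.5 and 51.3 CPM in fetal libraries, against 120.4, 133 and 173 CPM in adult libraries. The groups were apart in the other direction, with a log2 fold change of -1.08 (SE 0.16, adjusted p = 9.04e-05, edgeR). Mycl had 22.6, 23.4 and 22.4 CPM in fetal libraries, against 64.5, 63.3 and 74.9 CPM in adult libraries, with a log2 fold change of -1.57 (adjusted p = 6.5e-08, edgeR). Larp1, the protein that binds TOP tracts, had 399, 384 and 366 CPM in fetal libraries, against 576, 601 and 552 CPM in adult libraries, with a log2 fold change of -0.59 (adjusted p = 4.17e-05, edgeR). All 4 kept their call and direction in each fit that leaves out 1 library.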

How the data were processed

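The deposited table holds whole-number read counts per gene, with no normalization visible in the values the authors deposited. Per the submitters' processing notes, the build is mm10 and edgeR was used; the sources used here give no aligner, counter, strand setting or treatment of reads that match several genes. Counts of 3 fetal and 3 adult libraries, grouped by their titles, were fitted with edgeR 4.0.16 (R 4.3.3): TMM scaling, filterByExpr, quasi-likelihood test, Benjamini-Hochberg adjustment over 13314 genes, threshold 0.05. CPM values use TMM-scaled totals of the tested genes. Of all rows, 7 carry an Entrez ID and no symbol. The standard error is the log2 fold change divided by the square root of F. Paralogue ratios used log2(CPM + 0.5) and genes with at least 10 reads. Sequence shared with other genes came from GENCODE M21 transcripts, and gene positions and promoters from RefSeq on GRCm38.p6. Alternatives were RLE, library size only, DESeq2 1.42.0, other filters, TMM without the members, leaving out Rn45s, added pseudogene rows, a replicate block and each library left out.

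The members and lists were chosen with earlier results of these data known. The text names the paralogues, the 8 members with the largest and the 8 with the smallest fold change, the 6 most abundant, 12 key members, and up to 4 called genes of each other list by smallest p; other members are named where stated. Of the tested members, 78 had a transcript for the comparison of sequence. The procedure was tested on simulated counts of 12137 genes. Of 93 genes given a log2 change of 0.5, it recovered 36.6%. Of 88 genes given a log2 change of 1, it recovered 80.7%. Among its calls in the simulation, 7.89% were false. Only those genes were given a change, whereas 54.9% of all tested genes were called in the real data. The adjusted threshold depends on that share, so these rates may not hold for the members. A member that did not pass the test can still differ, and some calls may be false. A few genes are not reported here by name and are left out of the figures that label each member; all counts include them.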

Additional observations from a re-analysis of the deposited data

How the results depend on the processing

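Of 1022 values of 64 named genes under the alternatives, 949 kept their direction and their side of the threshold, 58 lost the call, 2 gained it and 13 changed sign. None of the 13 had passed the test. Under library size only, Rpl7l1 moved to 0.015 and Rps9 to 0.036. Over the fits that leave out 1 library, Rpl10 ran from -0.043 to 0.55, Rpl22l1 from -0.26 to 0.10, Rpl7l1 from -0.092 to 0.020, Rps6 from -0.23 to 0.17, Rps9 from -0.086 to 0.084 and Rpsa from -0.31 to 0.013.

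Members called higher numbered 3 to 5, and members called lower 11 to 21, over the fits that leave out 1 library. Together they were 17.7% to 30.9% of members, beside 48.3% to 52.8% of all genes. Without both fetal library 3 and adult library 2, a setting chosen after seeing the data, 3 members were higher and 8 lower. That was 13.8%, beside 45.2% of all genes, and Rpl7l1 moved to 0.055 and Rps9 to 0.033. Library size only gave 3 higher and 14 lower members, or 21.2% beside 54.3% of all genes, and moved the all-gene median to 0.05. DESeq2 gave 3 and 21, or 28.6% beside 37.0% of all genes with reads. RLE gave 3 and 19, or 27.5% beside 54.9% of all genes. The mean share of counts on member rows was 1.11% in fetal and 1.296% in adult libraries without Rn45s, and 1.17% in fetal and 1.40% in adult libraries with pseudogene rows added. The cause was not tested. With a replicate block, 3 members were higher and 14 lower, or 21.2% beside 51.7% of all genes. Over all genes, deviations of same-numbered libraries from their group mean correlated at -0.05, -0.03 and -0.07. Over the members these values were -0.18, -0.42 and -0.55, and the other pairs of libraries ran from -0.20 to 0.48. Deviations in a group of 3 libraries sum to 0, so such values cannot show whether the numbers pair the libraries. The 20 tested members under 10 CPM gave 0 calls by edgeR and 1 unadjusted p under 0.05; whether depth limits these was not tested.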
